A study of Mus musculus with 18 samples.

Results

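The distal colon of Il10 knockout mice at 12 weeks of age was compared with that of Il10 knockout mice at 6 weeks. The members of the comparison were chosen by their labels: 3 libraries labelled BALB/c Il10KO at week 12 and 3 at week 6, of 18 libraries in all. The other libraries came from BALB/c wild-type mice at week 6 and from BALB/c Il10KO mice at weeks 8, 10 and 14, with 3 mice a group. Every library was made from polyadenylated RNA of 1 piece of distal colon from 1 mouse, so no animal was sampled at more than 1 age. Both groups of the comparison carry the same Il10KO genotype on the BALB/c background, and the labels name no treatment for either. Wild-type mice were taken at week 6 only, so a change with age that a wild-type colon would also undergo and a change tied to the knockout cannot be told apart. A piece of colon holds epithelium, immune cells, stroma, vessels, nerves and muscle, and in such bulk samples fewer cells of a type and less RNA per cell cannot be told apart.

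Interleukin-10 holds back the response of macrophages and T cells in the gut wall, and mice that lack it are a long-used model of chronic colitis driven by the response to gut bacteria. T helper 1 cells are prominent in this colitis. They release interferon-gamma, which acts on its target genes through promoter elements such as the gamma-activated sequence (GAS) and the interferon-stimulated response element (ISRE), the latter bound by interferon regulatory factors. The targets include guanylate-binding proteins, immunity-related GTPases, the immunoproteasome and the class II transactivator CIITA. CIITA in turn switches on the MHC class II genes, which epithelial cells of an inflamed colon are known to express beside professional antigen-presenting cells.

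The week 6 libraries held between 27994123 and 28910893 gene counts and the week 12 libraries between 27048118 and 35497101. On the log2 CPM scale (CPM is the count scaled to a fixed library total, here after TMM scaling, with a prior count of 2), pairs of week 6 libraries correlated across genes at r of 0.984 to 0.986, pairs of week 12 libraries at 0.974 to 0.981, and pairs across the ages at 0.907 to 0.944. The first principal component of the 6 libraries held 73.4% of the variance and separated the ages. Goblet cell markers, which define a colonic mucosa, summed to between 12419 and 16555 CPM in all 6 libraries. RNA integrity numbers were 8.8, 9 and 8.9 at week 6 and 8.9, 8.6 and 8.8 at week 12. Il10 (1:131019845-131024974, GRCm38) had 0 estimated counts in all 6 libraries, where 3 counts correspond to between 0.084 and 0.11 CPM, but the wild-type libraries themselves held 1, 0 and 3 counts, so its absence says little about the labels. The labels also give a lipocalin concentration for each of these 6 mice, without naming the lipocalin or the material measured. It was 2574, 444 and 1767 ng/g in the week 12 mice against 4.72, 2.27 and 2.31 ng/g in the week 6 mice (means 1595 ± 1075 and 3.10 ± 1.40 ng/g, SD, n = 3). The groups did not overlap, and the exact two-sided permutation p was 0.1, the smallest that 3 against 3 mice can give.

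Of 16300 genes tested, 221 were higher at week 12 (1.36%) and 80 were lower (0.491%) at an adjusted p under 0.05, by edgeR's quasi-likelihood test in 1 fit of all 18 libraries. Such genes are termed called below. Among the genes that rose were members of the lists of interferon-gamma inducible genes (11 of 25) and of MHC class II (8 of 10) and class I (6 of 17) presentation, and Nos2, the inducible nitric oxide synthase. Among those that fell were 8 of 22 matrix and fibroblast genes and Car1, the colonocyte enzyme carbonic anhydrase 1. All 301 called genes had groups that did not overlap, a property that 5341 genes (32.8%) showed with week 12 higher and 5356 genes (32.9%) with week 12 lower.

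The number called depended on which libraries entered the fit. The common biological coefficient of variation was 0.394 with all 18 libraries and 0.290 without the 3 week 14 libraries. Week 14 replicates 1, 2 and 3 had RNA integrity numbers of 9, 6.5 and 5.8, and all other libraries lay between 8.4 and 9.3. Their TMM factors were 1.11, 0.581 and 0.680, and they correlated with the mean of week 6 at r of 0.986, 0.764 and 0.795. The part of RNA quality in the spread was not tested. Without those 3089 genes were higher (19.1%) and 3599 lower (22.2%) of 16176 tested, and all 301 calls of the 18-library fit were among them in the same direction. When 1 week 6 or week 12 library was left out of the 18-library fit, between 0 and 47 genes were called higher and between 0 and 5 lower: 1, 0 and 0 higher without week 6 replicates 1, 2 and 3, and 13, 9 and 47 higher without week 12 replicates 1, 2 and 3. When 1 was left out of the fit without week 14, an alternative chosen after the data had been seen, between 1946 and 2843 genes were higher and between 1308 and 3328 lower, and all 301 genes were called in each of these 6 fits. Of the 6688 calls of the fit without week 14, 2837 were called in all 6, out of 16176 genes tested. With cage as a factor 2 genes were called (2901 at an unadjusted p under 0.05). Counts of list members are therefore given below from the 18-library fit, then from the fit without week 14, and then as the number of the latter, in either direction, that were called in all 6 of its leave-one-out fits, termed kept.

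**Figure D1:**
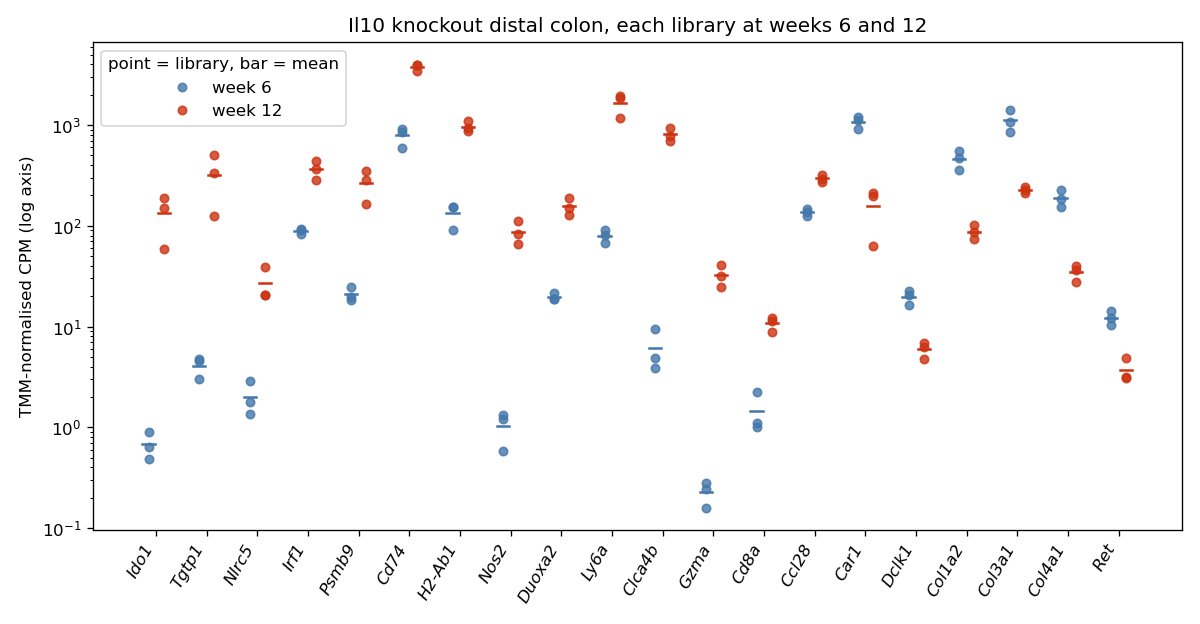
CPM on a log axis of 20 genes in each of the 3 week 6 libraries (blue) and the 3 week 12 libraries (red) of Il10 knockout distal colon, with bars at the means. All 20 were drawn from called genes, so the absence of overlap follows from their choice; Ido1 lies between 0.489 and 0.908 CPM at week 6 and between 58.2 and 189.5 CPM at week 12.

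Genes inducible by interferon-gamma included immunity-related GTPases, guanylate-binding proteins and Ido1. Of 25 tested, 11 were called higher and 0 lower, and without the week 14 libraries all 25 were called higher, of which 18 were kept. Their median log2 change was 3.61, against 0.003 over all genes tested. The list and the others below were drawn up with earlier results of these data known, and their counts describe these libraries. Ido1, which encodes the enzyme that starts tryptophan breakdown along the kynurenine pathway, had the largest rise among the genes named by the rule on size (8:24584136-24597009, GRCm38). It stood at 0.489, 0.632 and 0.908 CPM in the week 6 libraries and at 150.3, 189.5 and 58.2 CPM in those of week 12. This was a log2 change of 7.61 ± 1.27 with an adjusted p of 0.0209. Ido1 was the 1 call among 16 kynurenine pathway genes (median 0.34). Of these, 2 were higher and 2 lower without week 14 (2 kept), against 19.1% and 22.2% of all genes. Replicate 3 of week 12 was the lowest of its group for Ido1, as it was for most genes of the list, and still lay above every week 6 library. In the pairs of mice that shared a cage label, the log2 difference was 8.08 in cage A and 8.09 in cage B.

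The immunity-related GTPases, which coat and disrupt the vacuoles of intracellular microbes, supplied 5 of the 11 called genes. Tgtp1 went from 3.00, 4.74 and 4.54 CPM to 337, 506 and 124 CPM (log2 change 6.30 ± 1.22, adjusted p 0.0309), and its near-identical neighbour Tgtp2 changed by 4.74, so reads may be split between them. Iigp1 changed by 5.46, Igtp by 4.19 and Irgm2 by 2.88. Olfr56, named for an olfactory receptor, also rose, by 5.97 ± 1.19 (adjusted p 0.0324). Its annotated span on chromosome 11 overlaps Ifi47 on the same strand and Tgtp1 and Tgtp2 on the other. Only whole spans were compared here and not exons, so whether its counts come from the receptor was not tested.

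The promoters of 4 of these GTPase genes, Igtp, Irgm2, Tgtp1 and Tgtp2, share a layout, and they are shown because these genes moved together. Each runs from 250 bases before to 50 bases after the RefSeq start (GRCm38.p6), 5′ to 3′ along the gene. Capitals mark matches to the GAS motif TTCNNNGAA and to the ISRE-type motif GAAANNGAA, searched on both strands. The Igtp promoter lies at chr11:58199306-58199605, Irgm2 at chr11:58214727-58215026, Tgtp1 at chr11:48992197-48992496 and Tgtp2 at chr11:49064163-49064462; Igtp and Irgm2 lie on the plus strand and Tgtp1 and Tgtp2 on the minus strand.
Igtp: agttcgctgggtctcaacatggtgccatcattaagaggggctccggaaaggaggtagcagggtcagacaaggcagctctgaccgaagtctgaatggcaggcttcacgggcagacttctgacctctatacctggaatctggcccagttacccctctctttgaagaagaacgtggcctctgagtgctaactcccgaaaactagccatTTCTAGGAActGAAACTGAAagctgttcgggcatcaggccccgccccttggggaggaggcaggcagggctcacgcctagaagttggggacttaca
Irgm2: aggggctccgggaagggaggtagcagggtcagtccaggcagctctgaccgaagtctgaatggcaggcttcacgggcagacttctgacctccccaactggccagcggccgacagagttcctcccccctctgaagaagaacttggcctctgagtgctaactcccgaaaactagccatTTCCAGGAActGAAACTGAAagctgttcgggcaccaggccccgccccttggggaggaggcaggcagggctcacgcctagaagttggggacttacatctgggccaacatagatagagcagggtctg
Tgtp1: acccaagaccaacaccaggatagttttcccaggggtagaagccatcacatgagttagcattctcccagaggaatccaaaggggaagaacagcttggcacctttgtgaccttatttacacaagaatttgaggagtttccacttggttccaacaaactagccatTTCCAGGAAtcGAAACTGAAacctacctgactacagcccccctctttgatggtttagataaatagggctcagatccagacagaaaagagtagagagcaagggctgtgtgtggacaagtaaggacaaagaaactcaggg
Tgtp2: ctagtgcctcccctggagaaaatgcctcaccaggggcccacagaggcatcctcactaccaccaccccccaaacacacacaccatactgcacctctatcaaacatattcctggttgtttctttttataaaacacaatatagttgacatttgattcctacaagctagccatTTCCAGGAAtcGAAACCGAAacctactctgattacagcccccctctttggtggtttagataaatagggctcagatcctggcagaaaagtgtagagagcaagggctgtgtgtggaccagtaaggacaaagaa
In all 4 the GAS match is followed, after 2 bases, by the ISRE-type match, and the GAS match starts 45, 75, 88 and 81 bases before the gene start, in the order printed. A search for this arrangement, added after it had been seen, found it in the promoters of 8 of 27018 genes. The 4 printed here, from which the arrangement was read, are among these 8, as is Gm12185, a gene model that overlaps Tgtp1 on the same strand. The 1 other gene of the 8 that was tested, Adar, was not called (log2 change -0.20 ± 0.33, adjusted p 0.671).

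Over the list, 16 of 25 genes had a promoter in the RefSeq table. A GAS match was found in 8 of these 16 and an ISRE-type match in 13 (81.2%), against 9.55% and 9.76% of all 27018 genes with a promoter. Of the 12299 tested genes with a promoter, 8.53% held a GAS match and 8.95% an ISRE-type match. Among the 155 genes called higher that had a promoter, 12.3% held a GAS match and 15.5% an ISRE-type match; among the 54 called lower the shares were 5.56% and 9.26%. A match is a description of the letters and not evidence of binding. Ido1, Gbp4, Gbp6, Gbp8, Iigp1, Cxcl11, Nlrc5 and Batf2 were among those not in the table.

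Guanylate-binding proteins, which attack microbes in the cytosol, and transcriptional regulators made up most of the other calls. Gbp8 went from 1.47, 0.885 and 2.16 CPM to 17.0, 33.4 and 12.6 CPM (log2 change 3.80 ± 0.75, adjusted p 0.0315), and Gbp4 and Gbp6 changed by 3.80 and 3.62. Nlrc5, whose product switches on MHC class I genes, stood at 1.35, 1.77 and 2.85 CPM at week 6 and at 20.4, 39.4 and 20.6 CPM at week 12, a change of 3.75 ± 0.59 (adjusted p 0.0144). Irf1, itself an interferon-inducible transcription factor, changed by 2.04 ± 0.47 (adjusted p 0.0421). The T cell-attracting chemokine Cxcl9 missed the threshold with 1.84, 4.01 and 2.85 CPM against 59.2, 85.4 and 14.0 CPM (4.19 ± 1.09, adjusted p 0.0610). Ifng itself was near the limit of detection: 88 counts over the 3 week 12 libraries and 3 over those of week 6, a ratio of 30.1 (95% counting interval 9.97 to 149) with an adjusted p of 0.0861. Counting intervals and floors here cover counting error only. Of 19 genes inducible by type I interferon, 0 were called in either direction with all libraries and 9 were higher without week 14 (2 kept); Zbp1, a sensor of nucleic acids and the member with the smallest p, had a value of 3.40 ± 0.88 (adjusted p 0.0591).

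MHC class II genes rose together. Of 10 tested, 8 were called higher and 0 lower, and 8 were higher without week 14 (8 kept); the list median was 2.38. The 8 were the alpha and beta chains H2-Aa, H2-Ab1 and H2-Eb1, the peptide-exchange chains H2-DMa, H2-DMb1 and H2-DMb2, the invariant chain Cd74 and the transactivator Ciita. H2-Ab1 stood at 155, 90.6 and 155 CPM at week 6 and at 938, 1094 and 864 CPM at week 12. Its log2 change was 2.85 ± 0.57 with an adjusted p of 0.0315. Cd74 had 854, 597 and 911 CPM against 3430.2, 3949.5 and 3980.1 CPM. H2-DMb1 changed by 3.13, H2-DMa by 2.66 and Ciita by 2.40 ± 0.52. H2-Oa and H2-Ob, which restrain peptide exchange and are best known from B cells, had values of 1.23 ± 0.56 and 1.69 ± 0.70 and were not called. Markers of antigen-presenting cells were measured beside this group. The summed CPM of 12 dendritic cell markers lay between 64.0 and 93.9 at week 6 and between 52.6 and 73.9 at week 12, with 0 called, and 1 higher and 2 lower without week 14 (0 kept). That of 18 B cell and follicle markers lay between 187 and 297 at week 6 and read 215, 612 and 633 at week 12, and 0 of these 18 genes were called, with 2 higher without week 14 (1 kept). The 22 macrophage and monocyte markers summed to between 629 and 826 CPM and to between 1586 and 2529.8 CPM, and 0 were called, with 5 higher and 6 lower without week 14 (4 kept). Lyz2, a lysozyme of myeloid cells, read 358, 287 and 387 CPM and 964, 1931 and 1209 CPM, and Ly6c2, the member with the smallest p, 2.12 ± 0.58 (adjusted p 0.0714). Of the 22 log2 changes 13 were positive and 9 negative (median 0.48), so the rise of the sum did not hold for every member. Without week 14, 19.1% of all genes were higher and 22.2% lower. The part of antigen-presenting cells in the rise of class II was not tested.

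The Y box CTGATTGG is an element of class II and many class I promoters, and its search was added after the motifs above. It was found on either strand in 3 of 7 class II genes with a promoter (42.9%) and 7 of 15 class I genes (46.7%). The shares were 4.70% of all genes with a promoter and 6.42% of the genes tested that had one. The box did not follow the calls throughout. H2-Oa, H2-K1 and H2-D1 held it and were not called. The called genes H2-DMa, H2-DMb1, H2-DMb2 and Psmb8 had no match. It was found in the called H2-Aa, H2-Eb1, Psmb9, Tap1, H2-T23, H2-Q6 and H2-Q7. The promoters of H2-Aa and H2-Eb1 and that of Psmb9 are shown as examples that carry the box, in capitals below. That of Psmb9 overlaps the promoter of Tap1, which starts on the other strand. Both hold the same box, which was counted for each gene. H2-Aa lies at chr17:34287774-34288073, H2-Eb1 at chr17:34305617-34305916 and Psmb9 at chr17:34187281-34187580 (GRCm38.p6), and H2-Aa and Psmb9 lie on the minus strand and H2-Eb1 on the plus strand.
H2-Aa: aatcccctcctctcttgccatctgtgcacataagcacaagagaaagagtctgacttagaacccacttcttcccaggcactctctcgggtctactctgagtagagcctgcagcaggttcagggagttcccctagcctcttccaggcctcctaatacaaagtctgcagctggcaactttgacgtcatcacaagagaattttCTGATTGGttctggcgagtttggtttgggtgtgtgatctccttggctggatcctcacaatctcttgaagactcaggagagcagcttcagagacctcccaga
H2-Eb1: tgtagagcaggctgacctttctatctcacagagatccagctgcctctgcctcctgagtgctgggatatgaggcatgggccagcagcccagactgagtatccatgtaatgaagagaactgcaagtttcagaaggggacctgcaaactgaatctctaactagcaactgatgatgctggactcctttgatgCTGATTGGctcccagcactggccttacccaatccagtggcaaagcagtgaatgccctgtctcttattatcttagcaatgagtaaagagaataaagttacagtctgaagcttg
Psmb9: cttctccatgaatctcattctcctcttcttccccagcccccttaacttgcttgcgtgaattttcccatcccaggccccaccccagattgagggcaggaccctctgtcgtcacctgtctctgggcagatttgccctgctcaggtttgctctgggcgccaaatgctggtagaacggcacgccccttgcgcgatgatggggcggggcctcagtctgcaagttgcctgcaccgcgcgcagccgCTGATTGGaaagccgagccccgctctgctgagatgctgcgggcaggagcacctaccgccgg
The box starts 51, 62 and 11 bases before the gene start, in that order.

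Class I presentation genes included the immunoproteasome and the peptide transporter. Of 17 tested, 6 were called higher and 0 lower, 14 were higher without week 14 (13 kept), and the median was 1.63. Psmb8 and Psmb9 encode catalytic subunits that turn the proteasome into the immunoproteasome. Psmb9 went from 18.5, 19.6 and 24.7 CPM to 282, 348 and 165 CPM (3.66 ± 0.76, adjusted p 0.0362), and Psmb8 changed by 3.45 ± 0.65. Tap1, a subunit of the peptide transporter of the endoplasmic reticulum, changed by 2.56 ± 0.61 (adjusted p 0.0464). The other called members were the non-classical class I genes H2-T23, H2-Q6 and H2-Q7, which belong to a family of close copies among which reads can be split. B2m, the light chain, stood at 537, 558 and 601 CPM and 2331, 2661 and 2178 CPM (2.08 ± 0.52, adjusted p 0.0547) and was not called, although the groups did not overlap.

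**Figure D2:**
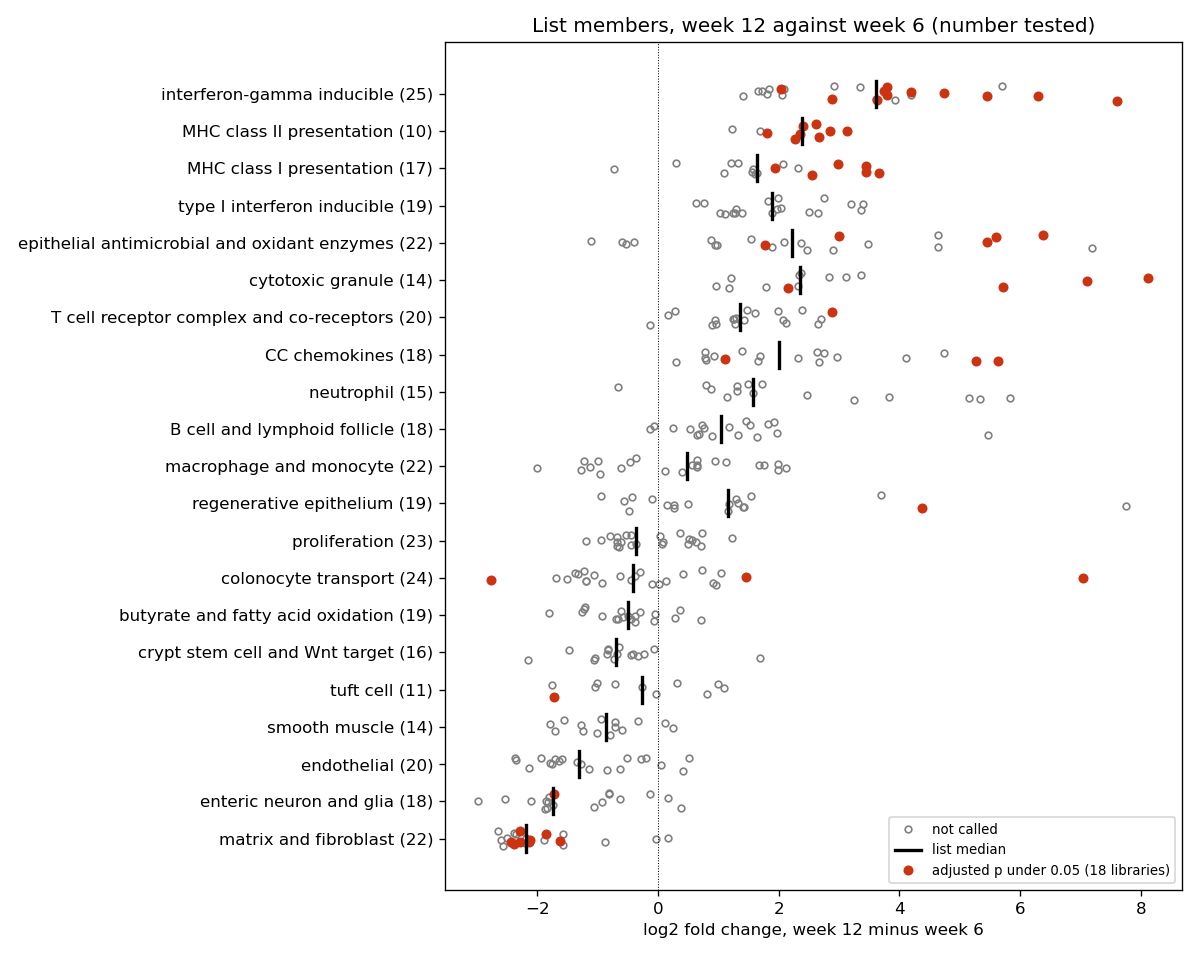
Log2 fold change of each list member at week 12 against week 6 (horizontal axis), by list (vertical axis, number tested in brackets), with called members in red, others as open circles and black bars at list medians. The interferon-gamma list has its median at 3.61 and the matrix and fibroblast list at -2.20, on either side of the dotted line at 0.

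Of 22 antimicrobial and oxidant genes of the epithelium, 5 were called higher and 0 lower, and 17 were higher and 1 lower without week 14 (10 kept; median 2.23). Nos2, the inducible nitric oxide synthase (11:78920787-78960254), stood at 0.581, 1.20 and 1.32 CPM at week 6 and 82.4, 65.9 and 112 CPM at week 12. Its log2 change of 6.39 ± 0.87 had an adjusted p of 0.0110, the smallest value in the test, which Nfkbiz and Steap4 shared. Duoxa2, which matures the hydrogen peroxide-producing oxidase DUOX2, went from 18.8, 21.6 and 18.6 CPM to 189.8, 152 and 129 CPM (2.99 ± 0.53, adjusted p 0.0254), whereas Duox2 itself had a value of 0.87 ± 0.35 and was not called. Pla2g2a, a secreted phospholipase that kills Gram-positive bacteria, changed by 5.46 ± 1.13, the iron-binding protein Ltf by 5.59 ± 1.24 and the bacterial sensor Nod2 by 1.78 ± 0.42. Lcn2, which encodes an iron-scavenging lipocalin of neutrophils and epithelium, had 1.87, 0.506 and 0.752 CPM at week 6 and 7.96, 3.64 and 5.73 CPM at week 12 (2.47 ± 0.98, adjusted p 0.120; 0.00799 without week 14). Reg3b had 0 counts in the 3 week 6 libraries and 58 over those of week 12, at least 19.8-fold higher with the floor set at 3 counts summed over the week 6 libraries, and was not called.

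Other epithelial genes changed strongly in both directions. Clca4b, a secreted calcium-activated chloride channel regulator, went from 3.89, 4.84 and 9.55 CPM to 944, 692 and 782 CPM, a log2 change of 7.05 ± 1.09 (adjusted p 0.0124). Plet1, a surface protein of epithelial progenitors and of repair, changed by 6.56 ± 1.40 (adjusted p 0.0376). Ly6a, the Sca-1 antigen that marks regenerating colonic epithelium and also lymphocytes and endothelium, stood at 67.8, 81.7 and 90.2 CPM and 1929.7, 1865 and 1187 CPM (4.38 ± 0.90, adjusted p 0.0359). It was the 1 called gene among 19 of the regenerative list, whose median was 1.16 and of which 6 were higher without week 14 (2 kept). In that fit 19.1% of all genes were higher and 22.2% lower. Car1, carbonic anhydrase 1 of surface colonocytes (3:14766216-14808368), fell from 1192, 1123 and 907 CPM to 62.8, 209 and 198 CPM, a change of -2.78 ± 0.49 (adjusted p 0.0254). Of 24 colonocyte transport genes, 2 were called higher (Clca4b and the water channel Aqp4, 1.45 ± 0.31) and 1 lower (Car1), with 4 higher and 7 lower without week 14 (6 kept).

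Other programmes of the crypt and surface held few calls, as did all genes tested (1.36% higher and 0.491% lower). Without week 14 the shares over all genes were 19.1% higher and 22.2% lower. Of 19 genes of butyrate use and fatty acid oxidation 0 were called, and 1 was higher and 9 lower without week 14 (2 kept; median -0.50). Slc16a1, a transporter of butyrate, had 605, 560.3 and 611 CPM at week 6 and 239, 230.5 and 292 CPM at week 12 (-1.22 ± 0.36, adjusted p 0.0795). Of 16 crypt stem cell and Wnt target genes 0 were called and 6 were lower without week 14 (1 kept; median -0.70); the stem cell marker Lgr5 had 9.42, 7.27 and 10.2 CPM and 1.17, 2.04 and 2.84 CPM (-2.15 ± 0.79, adjusted p 0.108), without overlap. Dclk1, a marker of tuft cells and of some neurons, fell by 1.73 on the log2 scale (adjusted p 0.0463), while the tuft cell factor Pou2f3 was under 1 CPM in all 6 libraries. Dclk1 was the 1 call among 11 tuft cell genes, with 1 higher and 3 lower without week 14 (1 kept). Of 23 proliferation genes 0 were called and 4 were higher without week 14 (1 kept; median -0.37). Goblet cell genes summed to between 14184 and 16555 CPM at week 6 and to between 12419 and 14294 CPM at week 12, and 0 of 19 were called, with 4 higher and 2 lower without week 14 (1 kept). Keratinocyte markers of the anal canal summed to between 8.17 and 14.5 CPM at week 6 and to between 4.49 and 9.34 CPM at week 12, with 0 of 7 called and 1 lower without week 14 (1 kept), and Lor at 4.44, 6.51 and 5.14 CPM and 1.92, 0.836 and 0.924 CPM.

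Granzymes and perforin, the killing proteins of cytotoxic lymphocytes, rose from near 0. Of 14 cytotoxic granule genes tested, 4 were called higher and 0 lower, and 11 were higher without week 14 (11 kept; median 2.36). Gzma, which encodes granzyme A, a protease of cytotoxic granules, stood at 0.245, 0.158 and 0.282 CPM in the week 6 libraries and at 40.5, 31.8 and 24.5 CPM at week 12 (7.12 ± 1.37, adjusted p 0.0309). Gzmb went from 0.184, 0.316 and 0.407 CPM to 29.8, 12.1 and 6.53 CPM, and the pore-forming protein Prf1 from 0.337, 0.316 and 0.501 CPM to 1.49, 1.49 and 2.20 CPM; their log2 changes were 5.72 ± 1.32 and 2.15 ± 0.46. Gzmk had 0 counts at week 6 and 115 at week 12, at least 39.3-fold higher, with 2.78, 0.291 and 0.319 CPM in the 3 libraries, so replicate 1 held most of them. The CD8 co-receptor Cd8a rose by 2.89 ± 0.56 (adjusted p 0.0309) and the checkpoint receptor Pdcd1 by 3.92 ± 0.76 (adjusted p 0.0309). Il21, a cytokine of helper T cells, had 0 counts against 46, at least 15.7-fold higher (adjusted p 0.0471). Pdcd1 was the 1 call among 14 regulatory T cell and checkpoint genes (median 0.47). Of these, 6 were higher and 1 lower without week 14 (5 kept). Il21 was the 1 call among 15 T helper cytokines and regulators (median 1.27), of which 2 were higher without week 14 (2 kept). Over all genes 19.1% were higher and 22.2% lower without week 14. Cd8a was the 1 called gene among 20 of the T cell receptor complex and its co-receptors, of which 14 were higher without week 14 (5 kept). These 20 genes summed to between 71.1 and 105 CPM at week 6, and at week 12 to between 186 and 234 CPM.

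Among cytokines and chemokines, Tnf rose from 0.398, 0.411 and 0.282 CPM to 14.3, 12.4 and 5.67 CPM (4.88 ± 0.95, adjusted p 0.0313), the 1 call among 12 inflammatory cytokines, of which 3 were higher without week 14 (2 kept). Of 18 CC chemokines 3 were called higher, and 12 without week 14 (11 kept). The share of all genes called higher in that fit was 19.1%. Ccl8, made by gut macrophages, changed by 5.63 ± 1.19, and Ccl28, which the epithelium makes to attract antibody-secreting cells, by 1.11 ± 0.21. Ccl3 had 1 count at week 6 and 53 at week 12, a ratio of 54.4 (95% counting interval 9.35 to 2188). Neutrophil markers were not called (0 of 15, with 7 higher without week 14, 3 of them kept). Cd177, a surface antigen of neutrophils and the member with the smallest p, had a value of 1.31 ± 0.34 (adjusted p 0.0636). It already stood at 134, 103 and 148 CPM at week 6 and at 104, 81.3 and 103 CPM in wild type. Which cells expressed Cd177 here was not tested. S100a8, a calprotectin subunit of neutrophils, had 0.184, 0.158 and 0.0940 CPM at week 6 and 14.3, 7.49 and 3.63 CPM at week 12 (5.83 ± 2.34, adjusted p 0.121). Of 8 neutrophil-attracting chemokines and their inducers 0 were called and 3 were higher without week 14 (1 kept); the median was 4.91, or 2.98 with the 2 genes at 0 counts in week 6 set to their lower bounds.

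Antibody-secreting cells were followed by 20 genes. Of these plasma cell genes 2 were called higher, and 6 without week 14 (2 kept), a fit in which 19.1% of all genes were higher. The 2 were Prdm1, the regulator of plasma cell differentiation, which is also expressed in the epithelium and T cells (1.77 ± 0.43), and Ighg3, an IgG heavy chain. Ighg3 stood at 2.17, 0.980 and 2.57 CPM at week 6 and at 8.45, 22.9 and 73.5 CPM at week 12, 4.19 ± 0.90 with an adjusted p of 0.0383. Igha, the heavy chain of mucosal IgA, overlapped between the ages at 2773, 893 and 1018 CPM and 758, 1154 and 2693 CPM.

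Several further lists of cells and pathways held 0 calls with all 18 libraries, where 1.36% of all genes were higher and 0.491% lower. In the fit without week 14 those shares were 19.1% and 22.2%. Without week 14, 4 of 33 xenobiotic enzymes were higher and 8 lower (7 kept; median -0.30). Of 15 matrix metalloproteinases and their inhibitors 1 was higher and 6 lower (4 kept; 0.07), and of 17 claudin and tight junction genes 3 and 4 (2 kept; 0.08). Genes of interleukin-10 and interleukin-22 signalling had 2 higher and 4 lower of 14 (5 kept; 0.18), and handling stress genes 3 higher and 1 lower of 17 (2 kept; 0.40). Enteroendocrine genes had 2 higher and 3 lower of 13 (2 kept; -0.34), and complement genes 1 higher and 2 lower of 17 (1 kept; -0.22). Mast cell genes had 1 higher and 1 lower of 11 (1 kept; 0.97), while 0 of 6 eosinophil genes (1.03) and 0 of 13 mitochondrially encoded genes (-0.02) were called in either fit. Socs3, which restrains STAT3 signalling, had 7.89, 3.16 and 5.76 CPM at week 6 and 47.1, 21.0 and 22.1 CPM at week 12 (2.42 ± 0.75, adjusted p 0.0862).

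Regulators of the NF-kB pathway and of oxygen sensing included single calls. Nfkbiz, an inducible co-factor of NF-kB, rose from 18.6, 17.99 and 20.0 CPM to 98.1, 121 and 141 CPM (2.67 ± 0.36, adjusted p 0.0110), the 1 call among 14 NF-kB regulators, of which 6 were higher and 3 lower without week 14 (7 kept). Steap4, a metalloreductase induced by inflammatory cytokines, changed by 3.87 ± 0.53 (adjusted p 0.0110). Of 17 hypoxia and glycolysis genes 3 were called higher, the oxygen-sensing hydroxylase Egln3 (1.63 ± 0.37), the vessel growth factor Vegfa (1.36 ± 0.29) and the glycolytic regulator Pfkfb3 (1.17 ± 0.26); 5 were higher and 3 lower without week 14 (3 kept). In the fit without week 14, 19.1% of all genes were higher and 22.2% lower. Ldha and Aldoa, enzymes of glycolysis, had values of -0.03 and -0.15.

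Matrix genes formed the main group that fell. Of 22 matrix and fibroblast genes, 8 were called lower and 0 higher, and 19 were lower without week 14 (19 kept; median -2.20). Col3a1, the fibrillar collagen of the gut wall, went from 1410.0, 853 and 1082 CPM to 243, 213 and 226 CPM (-2.29 ± 0.42, adjusted p 0.0296). Col1a2 (6:4504814-4541544) stood at 547, 359 and 474 CPM and 87.5, 74.7 and 101 CPM, a change of -2.39 ± 0.56. The fibrillar collagen Col5a2 (-2.12), the basement membrane chains Col4a1 (-2.44) and Lama4 (-1.85), the microfibril protein Fbn1 (-2.14) and the matricellular proteins Sparc (-1.62) and Tnc (-2.30) fell as well. The laminin chain Lamb1, outside the list, was among the 10 largest falls (-2.41 ± 0.58). Further calls outside the list, chosen after their values were seen, were the collagen-modifying or chaperone genes Lox (-1.91), Loxl2 (-2.21), Serpinh1 (-1.48), P3h1 (-1.28) and Fkbp10 (-1.82). The fibroblast genes Dpt and Thy1 had values of -0.04 ± 0.42 and 0.16 ± 0.30 and were not called, and both overlapped between the ages. The 22 genes summed to 6031, 4183 and 4822 CPM in the week 6 libraries and to 1458, 1251 and 1321 CPM in those of week 12.

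Medians of the lists of nerve, vessel, muscle and fat were below 0 beside the matrix genes. Of 18 enteric neuron and glia genes 1 was called lower, the receptor tyrosine kinase Ret (-1.72 ± 0.39, adjusted p 0.0402), and 14 were lower without week 14 (10 kept; median -1.74). Nos1, the neuronal nitric oxide synthase, had 12.0, 13.5 and 12.2 CPM at week 6 and 1.63, 1.35 and 1.78 CPM at week 12 (-2.98 ± 0.82, adjusted p 0.0716). Of 20 endothelial genes 0 were called and 12 were lower without week 14 (11 kept; median -1.32); of 14 smooth muscle genes 0 were called and 7 were lower without week 14 (1 kept; median -0.87). Of 9 adipose genes 0 were called and 4 were lower without week 14 (0 kept; median -1.52). Adipose genes summed to 423, 169 and 203 CPM at week 6 and 72.2, 80.9 and 99.3 CPM at week 12, smooth muscle genes to between 7348 and 8124 CPM and between 3590.3 and 6704 CPM. The part of the amount of deep-layer tissue in each piece in the fall of matrix genes was not tested. Among the 10 largest falls were also Galnt17 (-4.21 ± 1.01), Ndnf (-2.86 ± 0.67), the imprinted gene Peg10 (-2.73 ± 0.65), the vesicle protein Syt4 (-2.48 ± 0.43) and Fndc5 (-2.45 ± 0.54). Maged2 and Anxa5 had the smallest p-values with Syt4 among the genes that fell, at -1.31 ± 0.21 and -1.20 ± 0.21.

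The called genes Srsf5, Ccnl2, Arglu1, Snrnp48 and Pnisr were picked out after their values were seen, to look at their transcript models, and stand for no wider group. Srsf5, a splicing factor, changed by 1.42 ± 0.31, Ccnl2 by 1.84 ± 0.36, Arglu1 by 0.94 ± 0.22, Snrnp48 by 1.42 ± 0.33 and Pnisr by 1.53 ± 0.22. The transcript tables assign reads to annotated models, among them models with a retained intron. Of the estimated counts of Srsf5, 13.5%, 13.8% and 13.3% fell on retained-intron models at week 6 and 41.8%, 47.1% and 44.0% at week 12. For Arglu1 the shares were 16.3%, 21.3% and 22.5% against 52.8%, 57.1% and 54.7%, with 34.4, 30.9 and 22.4% in the wild-type libraries. Hnrnpdl, also examined, had small shares of 0.76, 0.76 and 0.41% against 2.63, 2.14 and 3.00%. For Pnisr the share was 0% in every library of both ages. Whether the annotation holds a retained-intron model of Pnisr was not checked, so this share cannot show whether its rise came with such a shift. Over all transcripts, 1.06%, 1.09% and 1.08% of counts fell on such models in the week 6 libraries against 1.70%, 1.97% and 1.74% in those of week 12, a difference of means of 0.727 percentage points (exact two-sided permutation p = 0.1, the smallest possible). The share assigned to protein-coding models was 93.3 ± 0.106% and 91.4 ± 0.202% (SD, n = 3), also without overlap. The share on retained-intron models varied among the other groups: it was 1.03, 1.06 and 1.01% in the wild-type libraries, 1.22, 1.41 and 1.30% in those of week 8, 1.85, 1.64 and 1.18% in those of week 10 and 1.16, 1.76 and 1.76% in those of week 14. RNA integrity numbers of weeks 6 and 12, given above, overlapped between these 2 ages, and the part of RNA quality in these shares was not tested. Leng8, another called gene with retained-intron models, was the 1 of 301 calls whose sign changed when TPM replaced counts.

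**Figure D3:**
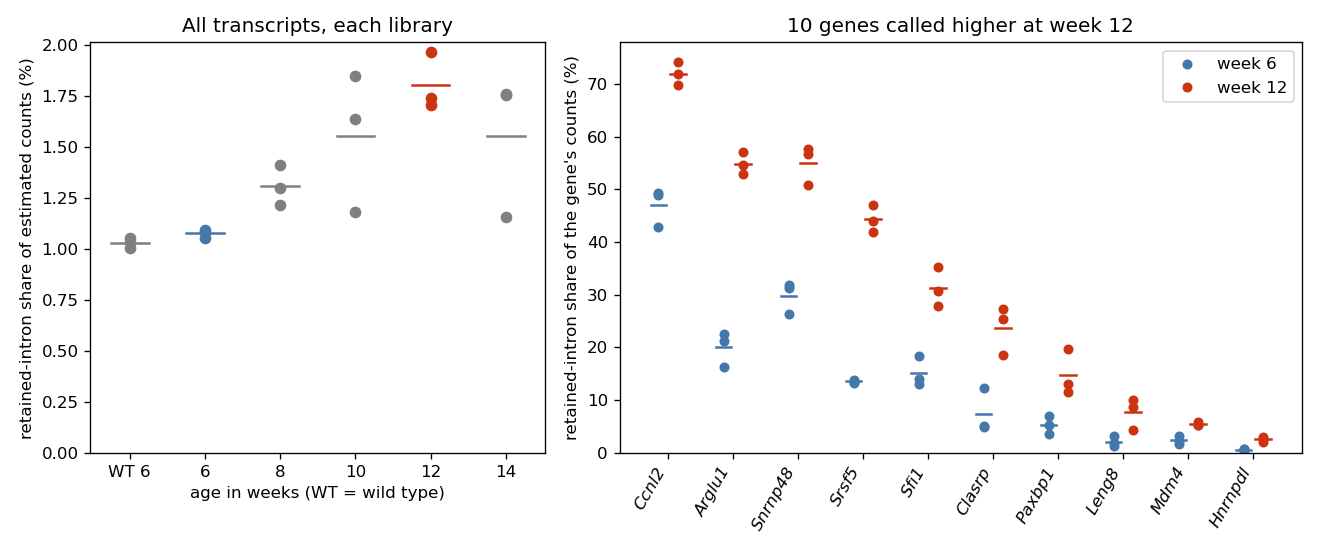
Left, retained-intron share of all estimated counts (percent) in each library by group; right, the same share within 10 genes called higher, at week 6 (blue) and week 12 (red), with bars at means. The week 12 libraries lie between 1.70% and 1.97% and the week 6 libraries between 1.06% and 1.09%. Pnisr and Fnbp4, also examined, had a share of 0% at both ages and are not drawn.

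The difference between week 12 and the ages before it was tested directly. Against week 10, 34 genes were higher at week 12 (0.209%) and 39 lower (0.239%); against week 8, 0 genes were called, with 1357 at an unadjusted p under 0.05 and 11 called by DESeq2. Against week 10 the 73 calls became 0 without week 10 replicate 3 or week 12 replicate 2 or 3, 9 without week 12 replicate 1 and 30 without week 10 replicate 1. The changes from week 6 at weeks 10 and 12 share the week 6 libraries, so their likeness is no result. Interferon-gamma genes had a median log2 difference of -1.47 between weeks 12 and 10 with 0 of 25 called, class II genes 0.12 with 0 of 10, and matrix genes -0.31 with 0 of 22. Ido1 read 0.210, 0.356 and 0.292 CPM in wild type, 7.68, 111 and 406 CPM in the week 8 libraries, 372, 338 and 379.8 CPM in those of week 10 and 10.7, 128 and 171 CPM in those of week 14, so that all 3 week 12 libraries lay below those of week 10 and inside the range of week 8, a difference from week 10 that was not called (adjusted p 0.532). Col1a2 read 281, 491 and 454 CPM in wild type, 284, 264 and 117 CPM in the week 8 libraries, 57.3, 90.2 and 224 CPM in those of week 10 and 229, 61.0 and 66.0 CPM in those of week 14. Only Pfkfb3 was called both higher than at week 6 and lower than at week 10. It stood at 10.2, 8.72 and 10.2 CPM in the week 6 libraries, 31.5, 27.4 and 32.2 CPM in those of week 8, 112, 73.9 and 84.3 CPM in those of week 10 and 23.5, 18.9 and 22.9 CPM in those of week 12, and differed by -2.05 ± 0.27 (adjusted p 0.0110) between weeks 12 and 10.

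The genes with the largest such differences, among those with a standard symbol and a mean of at least 2 CPM at either age, were chosen after the comparison had been run. Cyp2c69, a cytochrome P450, had 0, 0.102 and 0.0602 CPM at week 10 and 2.35, 2.14 and 2.26 CPM at week 12, against 3.67, 2.18 and 1.82 CPM at week 6. Its log2 difference was 5.24 ± 0.84 (adjusted p 0.0187). The endothelins Edn1 and Edn2, vasoactive peptides, were both higher than at week 10: Edn2 stood at 0.307, 1.19 and 0.482 CPM at week 10 and 5.76, 5.96 and 6.66 CPM at week 12, a difference of 3.20 ± 0.46, and Edn1 differed by 2.82 ± 0.57. Ppfia3 and Kazald1 differed by 2.85 ± 0.40 and 2.64 ± 0.39. In the other direction Fut2, which adds fucose to epithelial glycans, stood at 661, 504 and 759 CPM at week 10 and 163, 128 and 137 CPM at week 12 (-2.17 ± 0.29). Tgm2, a transglutaminase, differed by -2.48 ± 0.36, the DNA-sensing adaptor Sting1 by -1.99 ± 0.31 and Erich3 by -3.66 ± 0.70. None of these 9 was called at week 12 against week 6 with all 18 libraries. In edgeR's fit without week 14 only Fut2 was, at 0.78 ± 0.18 (adjusted p 0.00713). Its week 6 libraries read 73.0, 91.1 and 74.4 CPM, below every week 12 library.

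**Figure D4:**
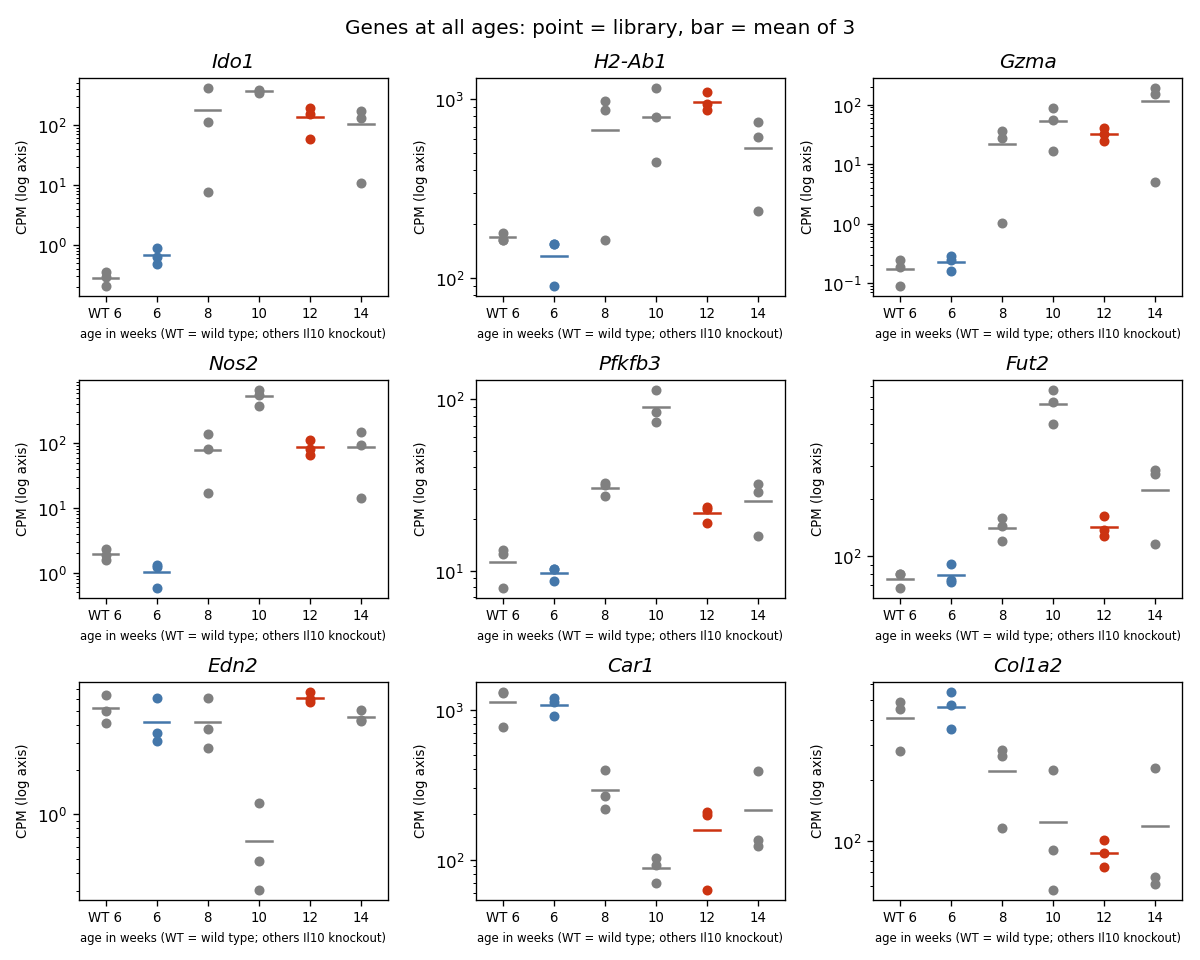
CPM (log axis) of 9 genes in every library of wild type at week 6 and Il10 knockout at weeks 6 to 14, with bars at the means of 3; week 6 in blue and week 12 in red. Pfkfb3 and Fut2 lie lower and Edn2 higher at week 12 than at week 10 in every library, while Car1 and Col1a2 lie lower at week 12 than at week 6 in every library.

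The scale of the values shifted the level of all genes. The median log2 change over all genes was 0.003 with TMM scaling, -0.15 with library size alone and -0.36 on the log2(TPM + 1) scale. With library size alone 180 genes were called higher and 19 lower, and on the log2(TPM + 1) scale 187 and 477. Relative to the median of all genes on each scale, the interferon-gamma list lay at 3.60 with library size alone and 2.52 on log2(TPM + 1), the class II list at 2.37 and 2.15, and the matrix list at -2.20 and -1.84. Relative to that median, 5 lists changed sign on at least 1 TPM scale: interleukin-10 and interleukin-22 signalling, enteroendocrine, tuft cell, tight junction, and matrix metalloproteinases.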

How the data were processed

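RNA of 18 distal colon pieces was sequenced by the authors with poly(A) selection. Per the submitters' processing notes, reads were checked with FastQC and quantified with kallisto, and the build named is mm10; versions are not given in the sources used here. The deposited gene table holds kallisto estimated counts per gene symbol, rounded to whole numbers, for 16321 genes with a summed count of at least 50. The authors also deposited TPM values for the same genes, and estimated counts and TPM per transcript. Whether quantification used the strand is not stated.

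From the gene counts, log2 changes and p-values were computed with edgeR 4.0.16 (TMM scaling, expression filter, quasi-likelihood F-test) in 1 fit of 6 group means over all 18 libraries, with Benjamini-Hochberg adjustment over 16300 genes and a threshold of 0.05. Values after ± are standard errors for log2 changes, taken from the F statistic, and SDs for means. Alternatives used DESeq2 1.42.0, limma 3.58.1, other scalings, filters, covariates and sets of libraries. The script was tested on simulated counts. Mice are separate animals, and group labels came from the sample labels.

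The comparison and the 44 gene lists were chosen with earlier results of these data known. Genes named by rule were the 10 largest rises and falls among called genes without overlap and with a mean log2 CPM of at least 1 in a group, leaving out gene models without a standard symbol and variable segments, the 3 smallest p-values each way, up to 3 called members of each list or its smallest p, and Il10 and Lcn2. Other genes named were chosen after their values were seen. Of the 301 calls, 32 were models without a standard symbol and 5 were variable segments. Gene positions are from GENCODE M21 (GRCm38) and promoters from RefSeq (GRCm38.p6).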

Additional observations from a re-analysis of the deposited data

Results flagged for a closer look

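Between week 12 and week 10, 73 genes passed edgeR's quasi-likelihood test. The 10 given here are the 5 largest differences each way among those with a standard symbol and a mean of at least 2 CPM at either age, chosen after their values were seen, and are listed because 2 ages under the same genotype differed. Higher at week 12 than at week 10, on the log2 scale, were Cyp2c69 (5.24), Edn2 (3.20), Ppfia3 (2.85), Edn1 (2.82) and Kazald1 (2.64). Lower were Erich3 (-3.66), Tgm2 (-2.48), Fut2 (-2.17), Pfkfb3 (-2.05) and Sting1 (-1.99). Of the 10, Pfkfb3 was also called at week 12 against week 6, and Fut2 was called there only in the fit without week 14. The 73 calls became 0 without week 10 replicate 3 or without week 12 replicate 2 or 3, 9 without week 12 replicate 1 and 30 without week 10 replicate 1.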

How the results depend on the processing

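Each alternative is given as genes called higher and lower at week 12 against week 6, where the reported counts were 221 and 80, and then as genes called against week 10, where the reported count was 73. DESeq2 gave 1435, 1072 and 821, and 11 genes against week 8, where every other alternative run gave 0. Library size alone gave 180, 19 and 20, and a filter of CPM of at least 1 gave 214, 87 and 110. On log2(TPM + 1) the counts were 187, 477 and 55, and on log2(TPM + 0.1) 96, 41 and 17. The 6 libraries compared, taken alone, gave 4599 and 4587. Without week 14 the counts were 3089, 3599 and 1096, with voom and a weight per group 5055, 5041 and 191, and with RIN as a covariate 3030, 2721 and 1030. Cage as a factor gave 2, 0 and 0. Wild type at week 6 as the reference gave 438 and 174.

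With the replicate number as a block 199 genes were higher, 48 lower and 40 were called against week 10. Replicates 1 of weeks 6 and 12 shared cage label A and replicates 2 shared cage label B, while replicates 3 had cage labels F and E. Deviations from the group mean of same-numbered libraries correlated at 0.028, -0.032 and -0.011. Those of other pairs of numbers correlated at -0.073 to 0.095. Whether the numbers pair the samples was not tested further. Leaving out 1 library gave 0 to 47 higher, 0 to 5 lower and 0 to 70 against week 10. Leaving out 1 week 6 library gave 0 or 1 higher and 0 lower. Leaving out 1 week 6 or week 12 library from the fit without week 14 gave 1946 to 2843 higher and 1308 to 3328 lower. The cause of these shifts was not tested.

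Of 75 genes named by rule, mt-Nd1, which was not called, reversed its sign, to -0.15 on both TPM scales. Each group has 3 mice, and genes with a few counts at week 6 have wide counting intervals.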
